A study of Rattus norvegicus with 24 samples.

Results

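The genes described here encode the sodium, calcium, HCN and TRP channels of the rat dorsal horn. They were taken as every gene with a single platform symbol that starts with Scn, Hcn or Trp (Trpa, Trpc, Trpm or Trpv) followed by a digit, or with Cacna or Cacnb. The array held 47 such genes among 10411 genes with a single symbol, on 62 probe sets, and the probe set with the highest mean stood for its gene. Of the 47 genes, 22 lay above 3.84 log2, the 40th percentile of all deposited values, on at least 6 of the 24 arrays, and these were tested. The prefix also takes in Trpc4ap, which encodes a protein that binds a TRP channel and is not itself a channel.

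The tissue was spinal dorsal horn from the side of the operated sciatic nerve of Sprague-Dawley rats. There were 4 groups of 6 arrays: adults with spared nerve injury (SNI), adults with a sham operation, neonates with SNI and neonates with a sham operation. SNI here means ligation and transection of 2 sciatic branches, the common peroneal and the tibial, with the sural branch kept, and the sham operation only exposed the nerve. The adults were 8 to 12 weeks old, the neonates are labelled postnatal day 10, and the series title places the measurement 7 days after injury. No genetic modification or drug is given for any group, and surgery was under isoflurane in all of them. The labels do not say whether day 10 is the age at surgery or at collection, so age and any difference in handling that goes with it cannot be told apart. The labels call the arrays biologically independent without saying whether animals were pooled.

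Voltage-gated sodium channels carry the rising phase of the action potential, through a pore-forming alpha subunit whose gating and placement are tuned by beta subunits. Voltage-gated calcium channels turn depolarisation into calcium entry at synapses and dendrites. Their alpha1 subunit forms the pore, and the beta and alpha2delta subunits control how much of it reaches the membrane. HCN channels open on hyperpolarisation and set resting conductance and rhythm. TRP channels are a mixed family, several of which sense heat, cold or chemicals in the endings of primary sensory neurons. Those neurons have their cell bodies in the dorsal root ganglia, so their transcripts are largely outside the dorsal horn.

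Members were called between the ages. None was called between SNI and sham, where 2.01% of all genes were called in adults and 0.357% in neonates, so that 0 of 22 is close to the background. Between adult and neonate dorsal horn, Scn4b and Hcn2 were higher in adults, in sham and in SNI arrays. Scn2a, Scn3a, Cacna1b and Cacna2d3 were lower in adults in both. The Scn3a call in sham arrays and the Hcn2 call in SNI arrays were lost under several alternative settings. The stretches of 250 bases before the RefSeq transcription start are shown for the pair of genes higher in adults and for the neighbouring pair Scn2a and Scn3a, which were lower, so that the genes the results turn on can be seen at their starts. They come from the RefSeq promoter table of build GRCr8 and are written 5′ to 3′ on the strand of the gene, in lower case, with matches to any of 5 short motifs in capitals.
Scn4b, chr8:54343623-54343872, plus strand: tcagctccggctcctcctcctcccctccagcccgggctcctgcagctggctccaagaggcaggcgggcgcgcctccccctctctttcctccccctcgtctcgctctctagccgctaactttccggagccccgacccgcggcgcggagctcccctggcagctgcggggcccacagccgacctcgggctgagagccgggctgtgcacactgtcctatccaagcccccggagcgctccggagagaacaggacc
Hcn2, chr7:10639458-10639707, minus strand: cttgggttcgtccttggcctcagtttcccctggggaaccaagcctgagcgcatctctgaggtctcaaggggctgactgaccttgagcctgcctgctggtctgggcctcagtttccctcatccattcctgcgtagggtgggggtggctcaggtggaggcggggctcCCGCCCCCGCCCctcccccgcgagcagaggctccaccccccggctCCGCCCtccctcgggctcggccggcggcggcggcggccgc
Scn2a, chr3:70710706-70710955, plus strand: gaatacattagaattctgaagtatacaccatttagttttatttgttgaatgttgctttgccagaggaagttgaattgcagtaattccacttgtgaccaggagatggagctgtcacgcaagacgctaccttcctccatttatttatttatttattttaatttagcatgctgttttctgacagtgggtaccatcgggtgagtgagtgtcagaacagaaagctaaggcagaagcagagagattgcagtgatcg
Scn3a, chr3:70666199-70666448, minus strand: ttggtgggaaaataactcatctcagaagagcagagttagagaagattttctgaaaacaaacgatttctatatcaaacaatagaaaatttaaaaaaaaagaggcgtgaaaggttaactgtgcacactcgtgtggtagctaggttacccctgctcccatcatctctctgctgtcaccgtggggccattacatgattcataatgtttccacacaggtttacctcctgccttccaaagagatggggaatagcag

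Both strands were searched, over the same 250 bases in the 33469 promoters of the table. TATAAA occurred in 12.9% of them, CCAAT in 34.0%, GGGCGG in 30.5%, CACGTG in 5.59% and TGACGT in 6.95%. The motifs share no bases within a printed window. The capitals in Hcn2 mark GGGCGG on the opposite strand, with first bases at -85, -79 and -40 from the start, the first of them running straight into the next. Scn4b, Scn2a and Scn3a held none of the 5 motifs. Both genes higher in adults had 71.6% G and C in this window. Scn2a had 39.6% and Scn3a had 41.6%, and the median of all promoters was 51.2%. The other members lower in adults were rich in G and C: Cacna1b had 72.0% with 3 GGGCGG and 1 CCAAT, and Cacna2d3 had 78.8% with 4 GGGCGG. Of the 47 members, 37 matched the table, among them 17 of the 22 above the filter. These matches describe letters in a window and nothing about any factor's binding.

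All 24 arrays were alike in scale, with medians between 5.57 and 5.67 log2, and the lowest correlation between any 2 of them was 0.984. All 11 neuron markers on the array lay above the filter, with a list mean per array of 12.23 to 12.68 log2 in adult SNI, 12.32 to 12.80 in adult sham, 12.26 to 12.63 in neonate SNI and 12.34 to 12.70 in neonate sham. Microglia and macrophage markers were higher after SNI, 10 of 10 in adults and 9 of 10 in neonates, where 1.98% and 0.357% of all genes were. Motor neuron markers (4 of 5 above the filter, with Isl1 on 0 arrays) varied widely between arrays, with list means of 4.60 to 7.01 log2 in adult SNI, 4.29 to 7.55 in adult sham, 4.06 to 6.30 in neonate SNI and 4.26 to 6.39 in neonate sham. Values come from whole tissue, in which fewer cells of a type and less RNA per cell cannot be told apart. The number of arrays limits the precision, and levels of different probe sets are not compared, because probes differ in brightness.

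Every family had members above the filter. Above the filter were 5 of 9 sodium channel alpha subunits (Scn1a, Scn2a, Scn3a, Scn7a, Scn8a) and 2 of 3 sodium beta subunits (Scn3b, Scn4b). Among calcium channels, 4 of 10 alpha1 subunits (Cacna1a, Cacna1b, Cacna1c, Cacna1g), both alpha2delta subunits (Cacna2d1, Cacna2d3) and 3 of 4 beta subunits (Cacnb1, Cacnb2, Cacnb3) passed. Of the HCN genes, Hcn2 passed out of 3, and of the genes with a TRP symbol 5 of 16 passed, Trpc1, Trpc4ap, Trpm3, Trpm7 and Trpv5.

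The 25 members under the filter include the best-known channels of pain-sensing fibres. Scn10a and Scn11a, the sodium channels of small sensory neurons, Trpv1, the receptor for heat and capsaicin, and Trpm8, the receptor for cold and menthol, lay above 3.84 log2 on 0 of 24 arrays. Scn9a, a sodium channel of sensory and sympathetic neurons, did so on 1 array. Cacna1d, an L-type pore subunit, was above the level on 4 arrays and Cacnb4, a beta subunit, on 3. Another 18 genes were on 0 arrays: Cacna1e, Cacna1f, Cacna1h, Cacna1i, Cacna1s, Hcn3, Hcn4, Scn2b, Scn4a, Trpc2, Trpc4, Trpc5, Trpc6, Trpm1, Trpm4, Trpv2, Trpv4 and Trpv6. Cacna1a on 20 arrays, Cacnb3 on 22 and Scn8a on 23 passed the filter without being above the level on all 24. A probe set near the GCRMA background, which is 2.09 log2 at its lowest, has no usable level, and its gene may still be transcribed. Of 12 primary sensory neuron markers on the array 5 were above the filter, while P2rx3, Th, Avil and Isl1, like the 3 members that the list shares, were on 0 arrays.

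**Figure D1:**
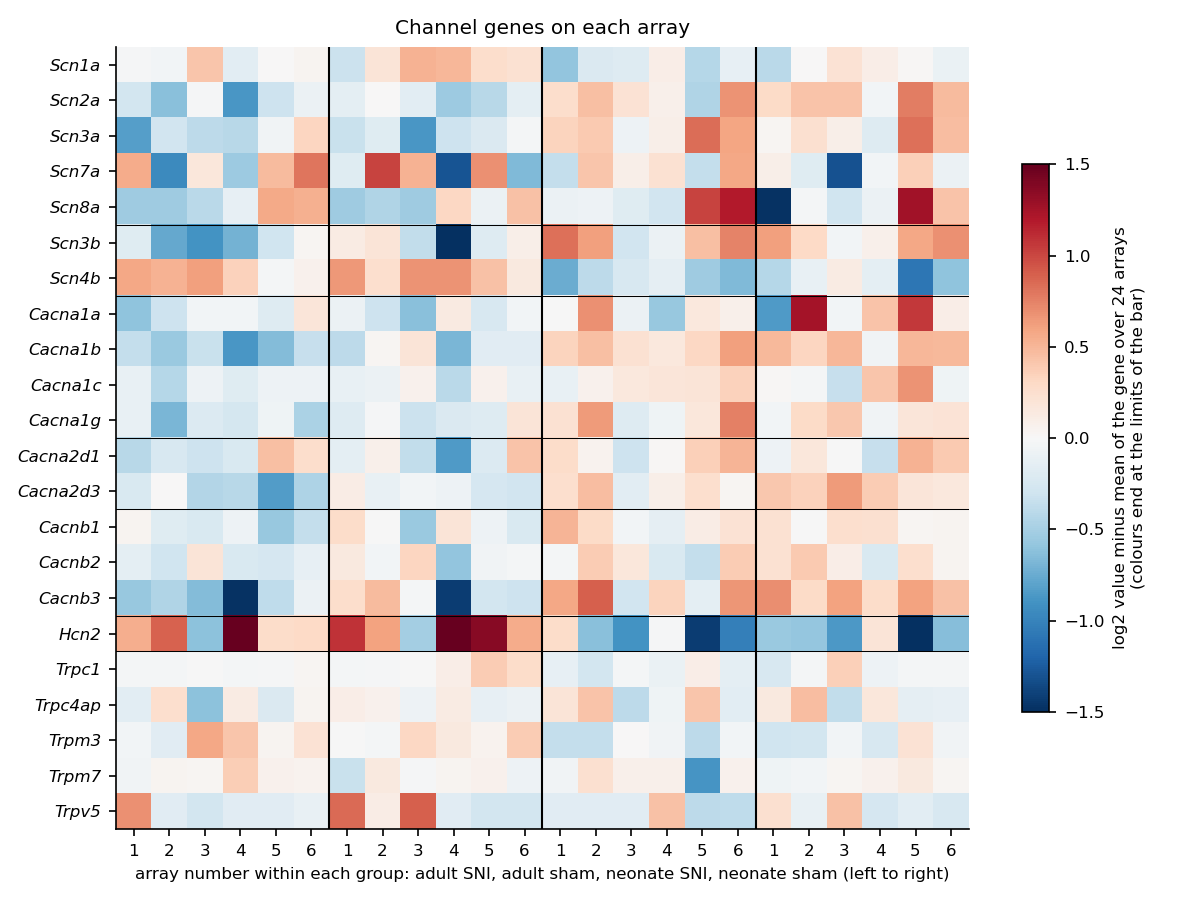
Deviation of each of the 22 tested members (rows, in the order of their roles) from its own mean over 24 arrays, in log2 units, for the 6 arrays of adult SNI, adult sham, neonate SNI and neonate sham (columns, left to right); the colour bar gives the limits. Scn4b and Hcn2 are mostly red in adults, Scn2a, Scn3a, Cacna1b and Cacna2d3 mostly red in neonates, and no row was called between the SNI and sham blocks of an age.

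The first comparison asks which channels changed 7 days after SNI in adults. None of the 22 members was called at an adjusted p under 0.05 in limma, where 2.01% of the 7006 genes tested were called, nearly all of them higher (1.98%) and few lower (0.0285%). The groups of 6 arrays overlapped for every member, against 1.88% of all genes whose groups did not overlap. The median difference of the members was -0.13 log2, against -0.03 for all genes, with 15 estimates below 0 and 7 above. At an unadjusted p under 0.05 there were 2 members, both calcium channel genes, where 7.75% of all genes were, so that count is near the background.

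Cacna1b encodes the pore of the N-type calcium channel, which triggers transmitter release at dorsal horn synapses. It was 7.59, 8.01 and 8.13 log2 (lowest, median and highest of 6) in adult SNI, against 7.78, 8.30 and 8.67 in adult sham. The ranges overlapped and the difference was -0.32 log2 (95% interval -0.59 to -0.05, adjusted p = 0.451). Under the alternative settings, pairing of arrays by number among them, the adjusted p for Cacna1b ran from 0.0678 to 0.740. Cacna2d3, an alpha2delta subunit, was 7.39, 7.80 and 8.24 log2 in adult SNI and 7.94, 8.14 and 8.35 in adult sham. Its ranges overlapped as well, with a difference of -0.29 log2 (adjusted p = 0.470, and 0.163 to 0.823 under the alternative settings).

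Several members are known from studies of injured sensory neurons or spinal cord. Cacna2d1, the alpha2delta subunit to which gabapentin binds, was 8.17, 8.35 and 9.03 log2 in adult SNI and 7.74, 8.40 and 9.01 in adult sham. The groups lay over each other, and the difference of 0.10 log2 had an interval of -0.30 to 0.49. Scn3a, the sodium channel best known from the embryonic and neonatal nervous system, was 7.54, 8.03 and 8.68 log2 in adult SNI and 7.50, 8.10 and 8.34 in adult sham. Its difference was 0.05 log2 (interval -0.34 to 0.43), so a change of a size inside that interval could not be told from 0. Over all 22 members the adult intervals ran from -1.06 (Hcn2) to 0.80 (Scn7a), and 21 of 22 lay within 1 log2 unit of 0 on both sides.

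In neonates SNI was set against sham in the same way. None of the 22 members was called, against 0.357% of all genes, and none had an unadjusted p under 0.05, against 2.63% of all genes. No member had groups without overlap, against 0.514% of all genes. The median difference was -0.05 log2 for the members and -0.01 for all genes. Cacna2d1 was 8.27, 8.75 and 9.09 log2 in neonate SNI and 8.24, 8.66 and 9.11 in neonate sham, a difference of 0.04 log2. Intervals ran from -0.81 (Cacna1a) to 1.03 (Scn7a), with 20 of 22 inside 1 log2 unit on both sides.

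The test of whether the injury effect differed between the ages called none of the members either, against 0.257% of all genes, and none had an unadjusted p under 0.05, against 2.46% of all genes. The difference of the SNI effects, adult minus neonate, had a median of -0.09 log2 over the members and -0.02 over all genes. Its intervals are wider, from -1.46 to 1.05, because 4 groups enter each. The plot of injury differences gives every member's estimate at both ages.

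**Figure D2:**
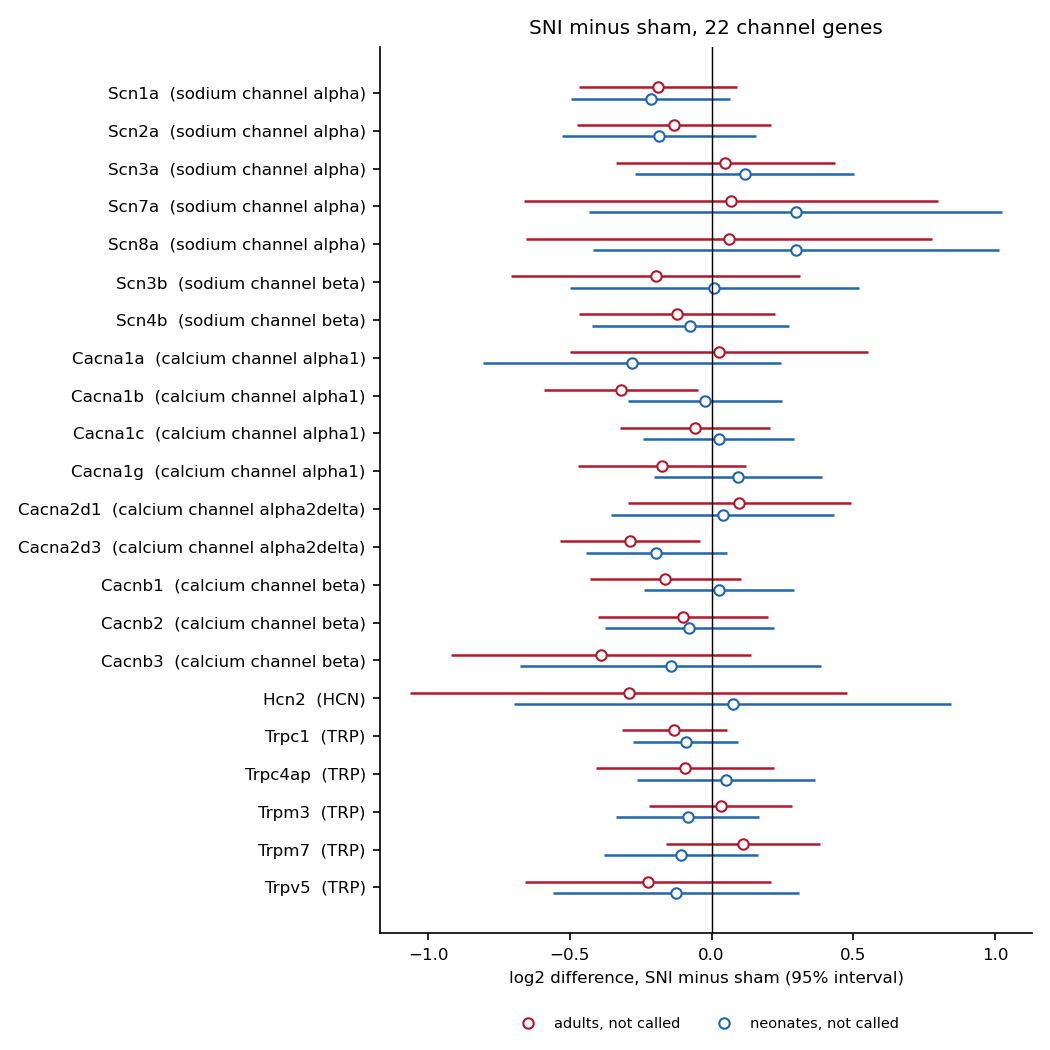
Difference SNI minus sham in log2 units (horizontal axis) for the 22 tested members (rows), in adults (red, upper of each pair) and neonates (blue, lower); circles are limma estimates from 6 against 6 arrays, lines are 95% intervals and all circles are open because no adjusted p was under 0.05. Nearly all intervals cross 0, with Cacna1b and Cacna2d3 in adults the exceptions before adjustment.

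Age was compared in comparisons that share no array: adult sham with neonate sham, and adult SNI with neonate SNI. In sham arrays 6 of 22 members were called, where 16.5% of all genes were, with 2 higher (background 7.86%) and 4 lower in adults (background 8.59%). In SNI arrays 11 of 22 were called, where 21.6% of all genes were, with 3 higher (background 9.66%) and 8 lower in adults (background 11.9%). The median difference of the members was -0.19 log2 in sham and -0.22 log2 in SNI arrays, against -0.03 and -0.05 for all genes. Groups did not overlap for 2 members in each comparison, Scn4b and Cacna2d3 in sham and Scn4b and Cacna1b in SNI arrays, against 8.65% and 9.11% of all genes. All 6 members called in sham arrays, or 6 of the 11 called in SNI arrays, were called in both with the same sign. Of all genes tested, 6.71% were called lower and 6.11% higher in both. In counts these were 470 and 428 genes, against 1153 genes called in sham arrays and 1514 in SNI arrays. Most calls were thus shared between the comparisons over all genes too, as they were for the members. The other 5, Cacna1g, Cacnb1, Cacnb3, Scn3b and Trpm3, passed in SNI arrays and not in sham arrays under the main settings. In sham arrays Cacnb3, Scn3b and Trpm3 each passed under some alternative setting. For Trpm3 this was only a block of same-numbered arrays over both ages, which were not taken as paired. None of the 5 passed the test of the difference between SNI and sham.

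**Figure D3:**
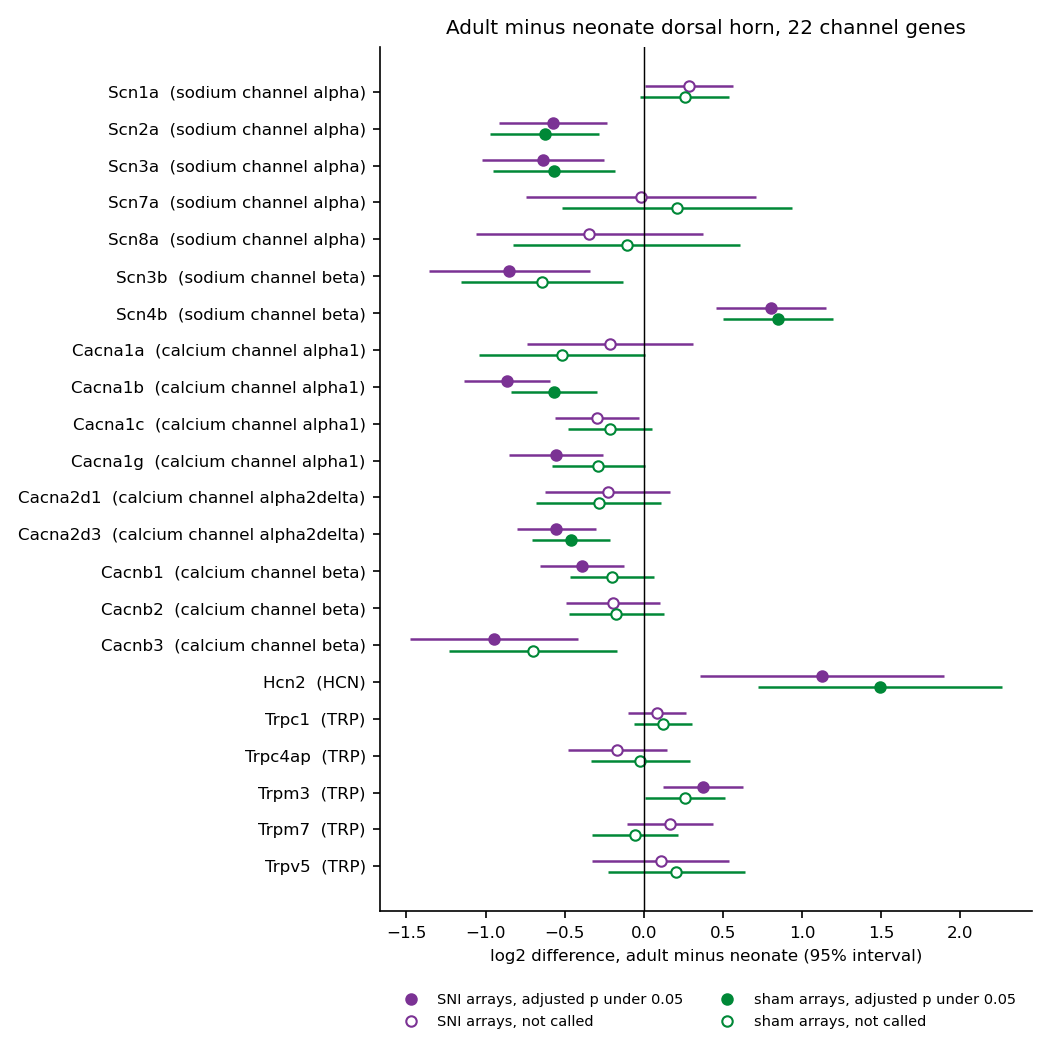
Difference adult minus neonate in log2 units (horizontal axis) for the 22 tested members (rows), in SNI arrays (purple, upper of each pair) and sham arrays (green, lower); circles are limma estimates from 6 against 6 arrays, filled where the adjusted p was under 0.05, and lines are 95% intervals. Both estimates of a member mostly lie on the same side of 0, with Hcn2 and Scn4b farthest to the right.

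Sodium channel beta subunits went opposite ways. Scn4b, a beta subunit linked to fast and resurgent sodium current in cerebellar neurons, was 10.94, 11.34 and 11.47 log2 in adult sham, against 9.71, 10.51 and 10.92 in neonate sham. In SNI arrays it was 10.76, 11.23 and 11.41 log2 in adults and 10.05, 10.33 and 10.66 in neonates. No adult array fell below a neonate array of the same treatment. The differences were 0.85 log2 (SE 0.17, adjusted p = 0.000848) in sham and 0.80 log2 (adjusted p = 0.00116) in SNI arrays.

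Scn3b, a beta subunit of neurons, was lower in adult than in neonate SNI arrays by 0.85 log2 units (difference -0.85, adjusted p = 0.0157). It was 8.19, 8.58 and 9.12 log2 in adult SNI, against 8.80, 9.62 and 9.92 in neonate SNI, and the ranges overlapped at their edges. In sham arrays it was 7.60, 9.03 and 9.28 log2 in adults and 9.05, 9.52 and 9.77 in neonates, a difference of -0.64 log2 (adjusted p = 0.0785) that did not pass. The difference was -0.40 log2 (adjusted p = 0.217) without adult sham array 4, its lowest array. It passed with the neuron marker mean as a covariate (-0.58 log2, adjusted p = 0.0185). With the motor neuron marker mean as the covariate it did not pass (-0.45 log2, adjusted p = 0.104).

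Among the alpha subunits, Scn2a and Scn3a were called and their tested chromosomal neighbours, Scn1a and Scn7a, were not. Scn9a, under the filter, was not tested. RefSeq places Scn3a, Scn2a, Scn1a, Scn9a and Scn7a in that order on rat chromosome 3, with the first pair starting next to each other on opposite strands, as the sequences above show. Scn2a, an alpha subunit of unmyelinated axons and immature axon initial segments, was 8.60, 8.99 and 9.14 log2 in adult sham, against 9.10, 9.57 and 9.91 in neonate sham. Adult arrays lay below neonate arrays except for a narrow overlap, and the difference was -0.63 log2 (SE 0.17, adjusted p = 0.0103). After SNI it was 8.26, 8.85 and 9.12 log2 in adults and 8.69, 9.38 and 9.81 in neonates, a difference of -0.57 log2 (adjusted p = 0.0151).

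Scn3a was 7.50, 8.10 and 8.34 log2 in adult sham and 8.17, 8.53 and 9.19 in neonate sham, with ranges that overlapped slightly. Its difference of -0.57 log2 (SE 0.19, adjusted p = 0.0394) stood close to the threshold and did not pass when any of adult sham arrays 1, 3, 4 and 5 or neonate sham arrays 2, 5 and 6 was left out, the adjusted p then reaching 0.116. In SNI arrays it was 7.54, 8.03 and 8.68 log2 in adults and 8.29, 8.72 and 9.20 in neonates. That difference, -0.63 log2 (adjusted p = 0.0169), passed with any 1 array left out.

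Scn1a, the alpha subunit of fast-spiking interneurons among others, pointed the other way without passing under the main settings. It was 10.19, 10.75 and 11.04 log2 in adult sham and 10.11, 10.52 and 10.72 in neonate sham (difference 0.26, adjusted p = 0.213). In SNI arrays the difference was 0.29 log2 (adjusted p = 0.145). It passed in sham arrays without adult sham array 1 (0.37 log2, adjusted p = 0.0474). In SNI arrays it passed with same-numbered arrays of both ages as a block (adjusted p = 0.0281). Scn8a, the main alpha subunit of mature nodes of Ranvier, was 4.10, 4.36 and 5.07 log2 in adult sham and 3.15, 4.57 and 5.89 in neonate sham, close to the filter level and with no call (difference -0.11, interval -0.82 to 0.61). Scn7a, a sodium-sensing relative found in glia and sensory neurons, differed by 0.21 log2 in sham and -0.02 log2 in SNI arrays, with intervals over 1 log2 unit wide. Alpha subunits are close paralogs, and whether probes of one bind transcripts of another was not tested.

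**Figure D4:**
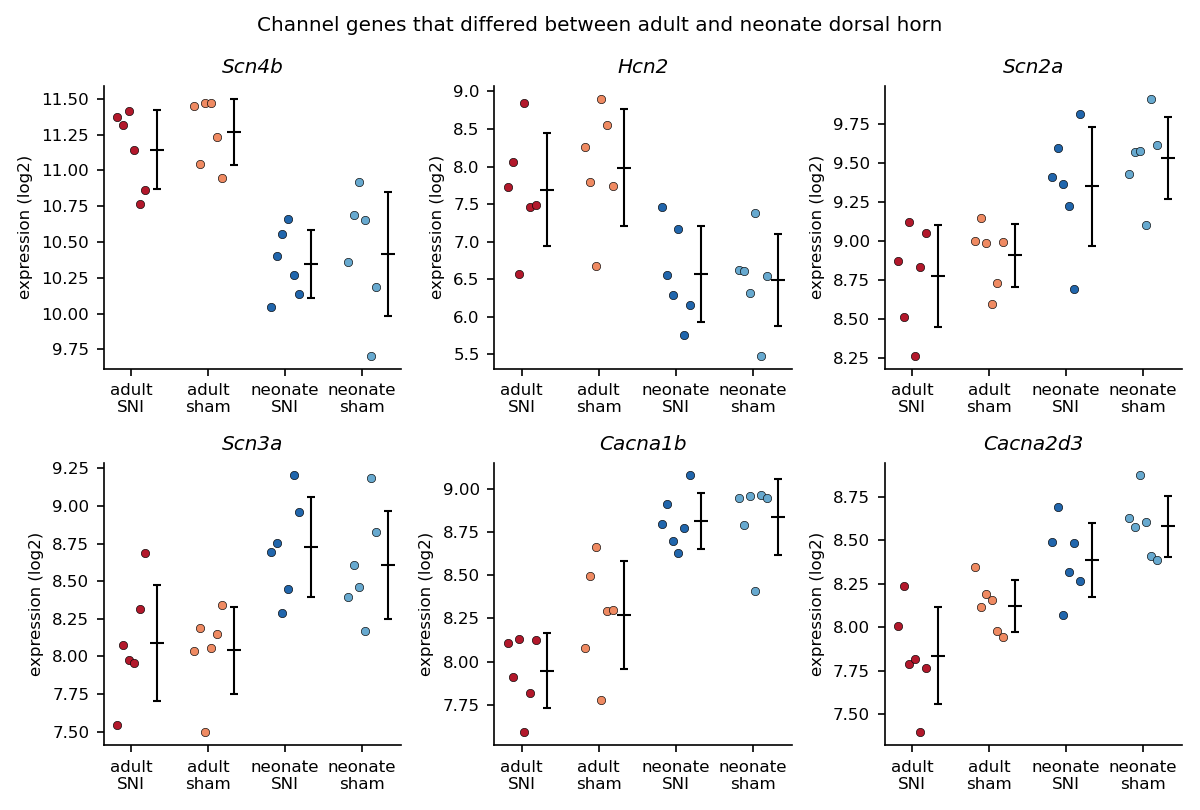
Log2 expression on each array (dots) for the 6 members called in both age comparisons, in adult SNI, adult sham, neonate SNI and neonate sham (6 arrays each); dash and bars are the mean and SD, and each panel has its own axis that does not start at 0. Adult dots lie above neonate dots for Scn4b and Hcn2 and below them for the other 4 genes, with the overlaps given in the text.

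Calcium channel subunits were lower in adults or not called, and none was higher. All 9 tested subunits had estimates below 0 in sham and in SNI arrays, where the medians of all genes were -0.03 and -0.05 log2. The share of all genes with an estimate below 0 was not counted. The sign held in 212 of 212 values of each comparison under other settings and with arrays left out. These values reuse the same genes and arrays and are not separate support. For the second probe set of Cacnb2 in sham arrays the value was only -0.0004 log2. Of the 9 subunits, 2 passed in sham and 5 in SNI arrays, where 8.59% and 11.9% of all genes were called lower. Cacna1b was 7.78, 8.30 and 8.67 log2 in adult sham, against 8.41, 8.95 and 8.96 in neonate sham. The lowest neonate sham array, number 4, stood apart from its group and inside the adult range. The difference was -0.57 log2 (SE 0.13, adjusted p = 0.00364). In SNI arrays it was 7.59, 8.01 and 8.13 log2 in adults and 8.63, 8.79 and 9.08 in neonates, without overlap, and the difference was -0.87 log2 (adjusted p = 3.18e-05).

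The other alpha1 subunits gave smaller estimates. Cacna1g, a T-type channel that opens near the resting potential, was 5.00, 5.45 and 5.62 log2 in adult SNI and 5.50, 5.88 and 6.44 in neonate SNI (difference -0.56, adjusted p = 0.00689). In sham arrays it was 5.36, 5.50 and 5.87 log2 in adults and 5.63, 5.88 and 6.09 in neonates (difference -0.29, adjusted p = 0.189). Cacna1a, the P/Q-type pore subunit, was 3.77, 4.23 and 4.52 log2 in adult sham and 3.54, 4.65 and 5.64 in neonate sham, a difference of -0.52 log2 that was not called (adjusted p = 0.181). It was called without neonate sham array 1 (difference -0.75, adjusted p = 0.0219). Cacna1c, an L-type pore subunit, was 5.39, 5.70 and 5.87 log2 in adult sham and 5.45, 5.80 and 6.48 in neonate sham, and was not called.

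Of the auxiliary subunits, Cacna2d3 was 7.94, 8.14 and 8.35 log2 in adult sham and 8.39, 8.59 and 8.88 in neonate sham, with no overlap. The difference was -0.46 log2 (SE 0.12, adjusted p = 0.00961). In SNI arrays it was 7.39, 7.80 and 8.24 log2 in adults and 8.07, 8.40 and 8.69 in neonates (difference -0.55, adjusted p = 0.00169). Its relative Cacna2d1 differed by -0.29 log2 in sham and -0.23 log2 in SNI arrays and was not called in either.

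Cacnb3, a beta subunit that partners N-type channels, was 3.37, 4.35 and 4.77 log2 in adult SNI, against 4.58, 5.32 and 5.75 in neonate SNI. The groups barely overlapped and the difference was -0.95 log2 (adjusted p = 0.00988). In sham arrays the difference of -0.70 log2 had an adjusted p of 0.0649. It was called when adult sham array 1 or 2 was left out, with values raised to the filter level, with array weights and with the neuron marker covariate. With the motor neuron marker covariate it was not called (-0.55 log2, adjusted p = 0.114). Cacnb1 was called in SNI arrays (difference -0.39, adjusted p = 0.0338) but not when any of adult SNI arrays 3, 5 and 6 or neonate SNI arrays 1, 2 and 6 was left out. Cacnb2 was called in neither comparison, on either of its probe sets above the filter.

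Hcn2, a pacemaker channel of spinal and sensory neurons, had the largest estimate of any tested member in both age comparisons, and the largest standard error. It was 6.67, 8.03 and 8.90 log2 in adult sham, against 5.48, 6.57 and 7.38 in neonate sham. The ranges overlapped through the lowest adult array, and the difference was 1.50 log2 (SE 0.37, adjusted p = 0.00685). In SNI arrays it was 6.57, 7.61 and 8.85 log2 in adults and 5.76, 6.42 and 7.46 in neonates, a difference of 1.13 log2 (adjusted p = 0.0335). That call was lost, with an adjusted p of up to 0.0958, when any of adult SNI arrays 1, 2 and 4 or neonate SNI arrays 2, 3, 5 and 6 was left out.

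The array with the most Hcn2 among adult sham arrays, number 4, also had the highest motor neuron marker mean of that group, at 7.55 log2. Among adult SNI arrays the highest marker mean was on array 2 (7.01 log2, with Hcn2 at 8.06), while Hcn2 was highest on array 4 (8.85 log2, with a marker mean of 6.81). With the motor neuron marker mean of each array as a covariate, added after the data had been seen, Hcn2 differed by 1.27 log2 (adjusted p = 0.00920) in sham and 0.93 log2 (adjusted p = 0.0468) in SNI arrays. Of the other calls, Scn3a in sham arrays was lost with this covariate (-0.48 log2, adjusted p = 0.0730). With the neuron marker mean in its place, Hcn2 differed by 1.44 and 1.08 log2. The neuron list itself had 0 members higher and 1 lower by age in sham arrays and 0 called in SNI arrays, of 11 tested. Of all genes, 16.5% were called by age in sham arrays and 21.6% in SNI arrays. Oligodendrocyte precursor markers were lower in adults, 3 of 5 in sham and 4 of 5 in SNI arrays, and microglia markers higher, 6 and 9 of 10. Astrocyte markers were higher for 3 and lower for 1 of 9 in sham arrays, and higher for 2 in SNI arrays. Fibroblast and meningeal markers were lower for 2 and higher for 1 of 8 in sham arrays and lower for 3 in SNI arrays, with median differences of -0.29 and -0.81 log2. Motor neuron markers had median differences of 0.75 and 0.61 log2 with 0 of 4 called, and primary sensory neuron markers 0.90 and 0.85 log2 with 1 of 5 lower in each. Beyond the 2 covariates, the part of these cell types in the channel differences was not tested.

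Of the 5 tested genes with a TRP symbol, Trpm3 alone was called by age. Trpm3, a channel opened by heat and the neurosteroid pregnenolone sulfate, was 6.60, 6.89 and 7.34 log2 in adult SNI, against 6.37, 6.56 and 6.77 in neonate SNI (difference 0.37, adjusted p = 0.0317). The call was lost when any of adult SNI arrays 3, 4 and 6 or neonate SNI arrays 1, 2 and 5 was left out, and with only these 2 groups in the fit (adjusted p = 0.0721). In sham arrays it was 6.74, 6.86 and 7.14 log2 in adults and 6.47, 6.62 and 6.98 in neonates, a difference of 0.26 log2 that did not pass (adjusted p = 0.166). Trpm7, a channel fused to a kinase and active in most cells, Trpc1, a cation channel subunit of many cell types, Trpv5, an epithelial calcium channel, and Trpc4ap were called in neither comparison. Trpc1 had a lowest and a median value of 4.74 log2 in adult SNI, so most of those arrays sat at a common low value.

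The companion lists of potassium channels and of channel partners place these channels beside others that shape excitability. Voltage-gated potassium channel alpha subunits numbered 30 on the array, of which 11 were above the filter. None was called by age in sham arrays, where 16.5% of all genes were. In SNI arrays 2 were higher in adults, where 9.66% of all genes were: Kcnh2 (difference 0.51, adjusted p = 0.0177) and Kcnd1 (difference 0.42, adjusted p = 0.0353). The median age differences of the potassium channels were 0.07 log2 in sham and 0.09 log2 in SNI arrays, against -0.19 and -0.22 log2 for the members, a contrast that was not tested. No potassium channel was called by injury, where 2.01% of all genes were called in adults and 0.357% in neonates.

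Partners of the channels, such as scaffolds and modulators, gave 34 tested genes out of 49 on the array and 63 listed. In sham arrays 3 were higher and 9 lower in adults, where 7.86% and 8.59% of all genes were. In SNI arrays 3 were higher and 11 lower, where 9.66% and 11.9% of all genes were. Nfasc, which encodes the adhesion molecule that holds sodium channels at nodes and initial segments, was 10.88 to 11.34 log2 in adult sham and 11.98 to 12.32 in neonate sham (difference -1.07, adjusted p = 2.52e-08). Stx1a, a syntaxin that binds N-type channels, differed by -1.38 log2 (adjusted p = 0.000288), and Homer1, a postsynaptic scaffold, by -0.82 log2 (adjusted p = 0.000837). Fgf13, an intracellular modulator of sodium channels, differed by -0.67 log2 (adjusted p = 0.00390) and Tmem100, a membrane protein that modulates TRP channels in sensory neurons, by -0.69 log2 (adjusted p = 0.00634). Cntn2, an adhesion molecule of the zone beside the node, ran the other way, at 5.34 to 6.31 log2 in adult sham and 3.68 to 4.40 in neonate sham (difference 1.85, adjusted p = 1.38e-06). Pex5l, which encodes an HCN channel partner, was higher in adults by 0.99 log2 in sham arrays (adjusted p = 0.0141) and 0.90 log2 in SNI arrays (adjusted p = 0.0213). No partner was called by injury in either age, where 2.01% of all genes were called in adults and 0.357% in neonates.

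**Figure D5:**
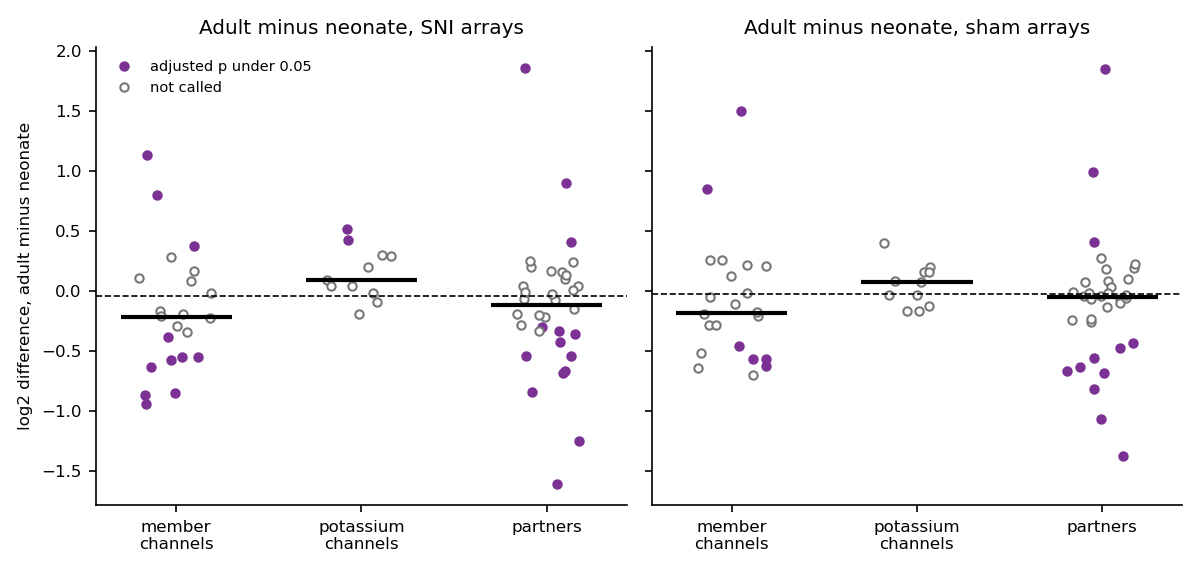
Difference adult minus neonate in log2 units (vertical axis) for tested members, potassium channel alpha subunits and channel partners (11 to 34 genes per list; dots, filled where limma's adjusted p was under 0.05), in SNI arrays (left) and sham arrays (right); bars are list medians and the dashed line is the median of all genes. Member and partner lists spread to both sides, and the potassium channels stay within about 0.5 log2 units of 0.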

How the data were processed

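Per the labels' protocols, 5 ug of Trizol-extracted dorsal horn RNA was labelled with biotin and read on the Affymetrix Rat Expression 230A array. The deposited values are log2 expression per probe set, made by the authors with GCRMA per the submitters' processing notes. GCRMA corrects background by probe sequence, and its version and the genome build of the probes are not given in the sources used here. In the deposited values the dim arrays of a probe set lie near a common low value, where differences can be understated.

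The log2 values were used as deposited. The table's 15923 probe sets included 57 controls, which were removed. A single symbol was listed for 12783 of the remaining 15866, several for 312 and none for 2771. Symbols come from the platform annotation, and all 47 member genes matched the list of rat genes by gene ID with the same symbol. Probe sets above the 40th percentile (3.84 log2) on at least 6 arrays, 9638 in all, were fitted in limma 3.58.1 (R 4.3.3) with 1 mean per group over 24 arrays. Two-sided p-values were adjusted over all probe sets tested (Benjamini-Hochberg), with a threshold of 0.05. Counts refer to 1 probe set per gene. Intervals are at 95%. The fit was tested on simulated data.

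Members and lists were chosen with earlier results of these data known. The named genes were all members, by role, with values for called members and a set of index channels. From each companion list up to 6 genes with the smallest p in a contrast were named, and Pex5l was added after its values were seen. Alternatives covered the filter, the normalization, the variance model, array weights, the probe set, the arrays in the fit, replicate blocks and leaving out arrays. Marker means as covariates were added after the data had been seen.

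Deviations from group means correlated at 0.10 to 0.56 between same-numbered SNI and sham arrays in adults and at 0.24 to 0.61 in neonates, so the numbers were taken to pair arrays within an age. What a number marks is not labelled. The differences, intervals and p-values printed for injury come from the fit of group means, which leaves this pairing out. With replicate number as a block within each age, 291 probe sets were called for adult injury, against 193 without it. The members called stayed at 0. Across ages the correlations ran from 0.014 to 0.43 in sham arrays and from 0.035 to 0.64 in SNI arrays. Their means were 0.26 and 0.31, against -0.05 and -0.06 for arrays of different number. Same-numbered arrays thus went together across ages too, more weakly on average than within an age. The age results printed assume no pairing, and the block over both ages is given as an alternative. Drawing used matplotlib 3.10.9 in Python 3.11.15.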

Additional observations from a re-analysis of the deposited data

Results flagged for a closer look

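Of 88 groups of 6 arrays (22 members in 4 groups), 14 held 1 array whose gap to the nearest other array, as a share of the group's range, exceeded Dixon's 95% critical value, where chance flags about 1 group in 20. For genes called by age, these were Cacna1b on neonate sham array 4 (8.41 log2, the lowest of its group), Scn3a on adult sham array 3 (7.50, the lowest) and Scn3b on adult sham array 4 (7.60, the lowest). Scn7a was lowest on neonate sham array 3 at 7.10 log2. On that array the Schwann cell marker mean (8.87 log2) and the fibroblast and meningeal marker mean (6.45 log2) were the lowest of the series. Its motor neuron and neuron marker means, 6.39 and 12.70 log2, were the highest of neonate sham. Whether Scn7a goes with any of these lists was not tested.

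The remaining flags fell on members called in no comparison under the main settings. Cacna1c was low on adult SNI array 2 (5.37 log2) and adult sham array 4 (5.39). Cacnb2 was high on adult SNI array 3 (7.62), and Scn1a was high on the same array (10.93). Trpc1 was flagged on adult SNI array 6 (4.80) and neonate sham array 3 (5.12, the next 4.74). In adult SNI its whole range was only 4.74 to 4.80 log2, so that flag reflects arrays at a common low value. Trpm7 was high on adult SNI array 4 (6.63) and low on neonate SNI array 5 (5.38), and Trpv5 was high on adult SNI array 1 (5.08) and neonate SNI array 4 (4.83).

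Below the filter, 2 members lay above 3.84 log2 on an adult SNI array and on none of the adult sham arrays: Cacnb4 on array 5 (3.93 log2) and Scn9a on array 3 (3.92 log2). Each is a single array close to the filter level.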

How the results depend on the processing

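The limma count of members called by injury was 0 under each of the 12 or 13 other processing settings and with each array left out, in adults, in neonates and for the difference of the SNI effects. By age, the count in sham arrays was 6, with 5 to 9 under other settings and 5 to 7 with 1 array left out, and in SNI arrays it was 11, with 8 to 12 and 8 to 11. Replicate number as a block (replicate block) gave 9 in sham and 12 in SNI arrays, and within an age, where the numbers pair arrays, the block changed none of the 0 counts. Of 17 calls, 13 held under every alternative run for them. The other 4 were lost under some, Scn3a in sham arrays and Hcn2, Cacnb1 and Trpm3 in SNI arrays, all of them without the filter on low values, where more probe sets are tested. Scn3a was also lost with median centring, with quantile normalization repeated and with the motor neuron covariate, and Trpm3 with only the 2 groups in the fit. In sham arrays the replicate block also called Cacnb3, Scn3b and Trpm3 (adjusted p = 0.0189, 0.00321 and 0.0420). This block ties same-numbered arrays of the 2 ages together, a pairing that the main fit did not assume although such arrays correlated on average. Over all probe sets it raised the age calls from 1573 to 2468 in sham arrays and from 2010 to 2942 in SNI arrays. No called difference changed sign, while 124 values of differences that were not called did, some of them of members called in another comparison. Over all probe sets, the age split in sham arrays was 724 higher and 849 lower, against 901 and 675 after median centring, and in SNI arrays 898 and 1112, against 1038 and 919. The adult injury count over all probe sets was 193, against 297 with the replicate block and 106 with the filter at the 60th percentile. The signal over background limits the 25 members under the filter, Cacna1a, Cacnb3 and Scn8a. It also limits Trpc1 and Trpv5, which lay above the filter level on 24 arrays but at means of only 4.77 and 4.39 log2.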
